A study of Mus musculus with 6 samples.

Results

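The genes described here are the colony stimulating factor genes Csf1 and Il34 and the receptor genes Csf1r, Csf2ra, Csf2rb and Csf3r in BV2, a mouse microglial line made immortal in culture. They were chosen by symbol, and every probe that was not a control and whose RefSeq transcript belongs to one of them was taken. The rule gave 6 of 29752 genes tested and 11 of the 39429 probes on the array, and all 11 probes were well above background on all 6 arrays. Csf1r and Csf1 had 3 probes each and Csf2rb had 2, while the other 3 genes had 1 probe each.

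Colony stimulating factors are secreted proteins that keep cells of the myeloid lineage alive and drive their growth and maturation. CSF1 and IL-34, which differ in sequence, both bind CSF1R, a receptor tyrosine kinase on which microglia depend for survival in the brain. CSF2RA is the chain that binds GM-CSF. It pairs with CSF2RB, the beta common chain, which the receptors for IL-3 and IL-5 also use and which signals through JAK2 and STAT5. CSF3R binds G-CSF and is best known from neutrophils and their precursors.

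Cells on poly-L-lysine-coated plates, in medium with serum, received recombinant murine IL-4 at 10 ng/ml or PBS for 24 hr, and RNA from 3 samples of each group was hybridised to single-colour (Cy3) arrays, 1 per sample. The study asked how messenger RNAs change as microglia take on the M2, or alternatively activated, state that IL-4 drives. The sample descriptions also carry the words human blood, while every other label names BV2, and the design text calls the PBS control untreated. The labels leave unstated whether each sample was a culture of its own. The p-values therefore reflect how much these samples varied, and that variation may be technical. No added CSF1, IL-34 or GM-CSF is named in the labels. By the scan records, slide 1 held all 3 IL-4 arrays together with PBS replicate 1, and slide 2 held the remaining PBS arrays, replicates 2 and 3. The values of the 6 genes, and of other genes where stated, are therefore given over all arrays and against PBS replicate 1, the control of the same slide. Between 34653 and 38649 probes per array were well above background, and the number of arrays limits the precision. All 10 markers of macrophages and microglia that were looked up were well above background on every array. Arg1, the arginase gene that IL-4 induces in macrophages, rose with a log2 difference of 2.02 ± 0.16 (SE; limma, adjusted p = 0.011), and stood at 2.29 within slide 1. In bulk RNA, fewer cells with a transcript and less of it per cell cannot be told apart.

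Levels below are log2 signals minus the log2 75th percentile over all probes of that array. A level compares arrays for 1 probe and does not rank genes, since probes differ in how well they hybridise. A gene was called where the Benjamini-Hochberg adjusted p over all genes in limma was under 0.05. The groups are said to overlap where the arrays of IL-4 and of PBS were not wholly above or below each other.

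None of the 6 genes passed the test between IL-4 and PBS in this limma fit, in which 3.35% of all genes tested did. At an unadjusted p under 0.05 the count was 2 of 6, Csf1r and Csf2ra, beside 34.1% of all genes, a share near that of the members. Csf1r came nearest to the threshold (adjusted p = 0.059). The median log2 fold change of the 6 genes was -0.04, beside -0.05 over all genes tested. The groups did not overlap for Csf1r and Csf2ra, both lower with IL-4, which is 2 of 6 beside 19.8% of all genes. No member was higher with IL-4 in all arrays by its brightest probe, beside 18.1% of all genes. Within slide 1 all IL-4 arrays were below PBS replicate 1 for 2 of the 6 genes and above it for 2, beside 25.5% and 30.5% of all genes. Over the 11 probes, 0 passed the same test run on probes, in which 3.9% of all probes did (2.92% lower and 0.984% higher). The groups did not overlap for 3 of the 11 probes with IL-4 lower and for 2 with IL-4 higher, beside 20.6% and 17% of all probes.

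**Figure D1:**
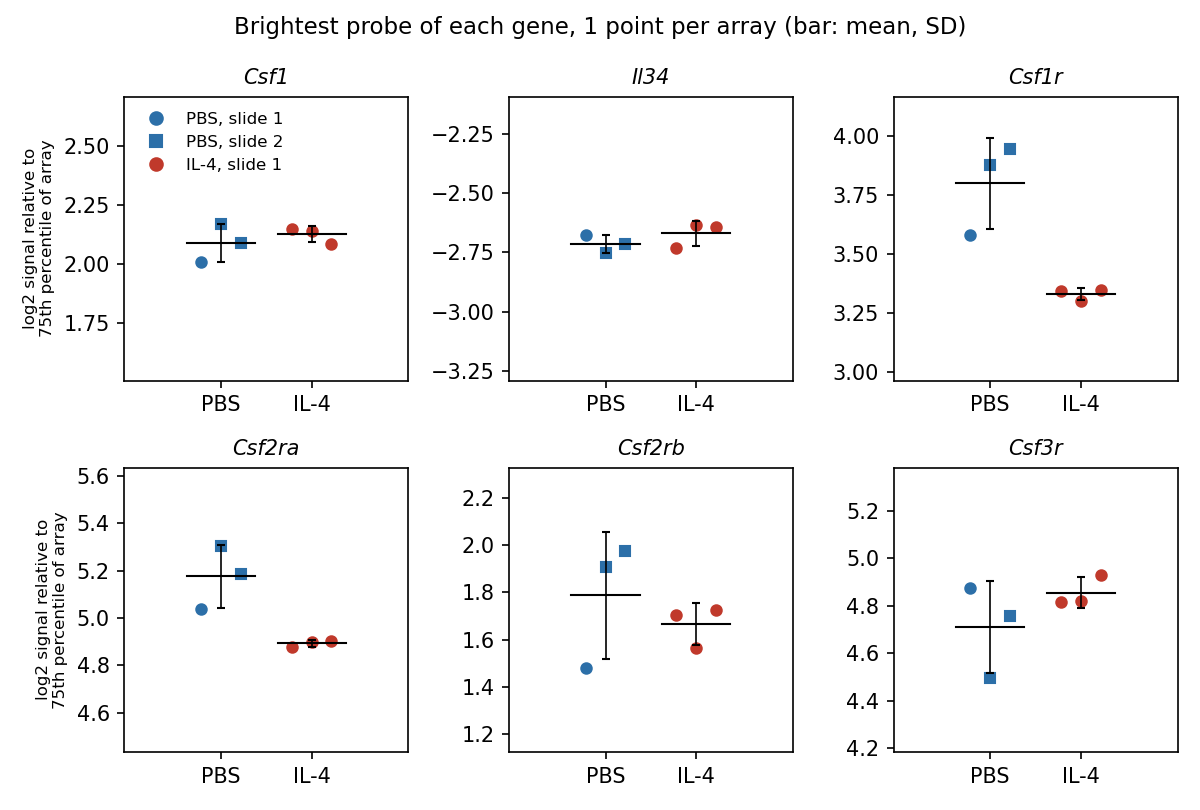
Log2 signal above the array's 75th percentile (y axis) for the brightest probe of each of the 6 genes, by group (x axis), with 1 point per array, the group mean and the SD. All panels span the same range in log2 units. The IL-4 arrays of Csf1r lie between 3.30 and 3.35, below the PBS arrays at 3.58 to 3.94, and of the 3 PBS arrays the one on slide 1 is nearest to them.

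Of the ligands of CSF1R, Csf1 encodes the growth factor that macrophages also make for themselves. Its brightest probe, present in 10 copies per array, stood at 2.15, 2.14 and 2.09 in IL-4 replicates 1 to 3 and at 2.01, 2.17 and 2.09 in PBS replicates 1 to 3. The groups overlapped, and the log2 fold change was 0.04 ± 0.10 (SE, adjusted p = 0.80, limma; 95% interval -0.19 to 0.26). Against PBS replicate 1 all 3 IL-4 arrays were higher, by 0.12 on average, and PBS replicate 1 stood at -0.12 from the mean of the other PBS arrays. The copies of this probe on an array differed from each other with an SD of 0.035 to 0.085, the part of the spread that arises within an array.

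The other probes of Csf1, both designed to the transcript NM_001113530 rather than NM_007778, gave values below 0. The brighter of them stood at -0.55, -0.61 and -0.51 with IL-4 and at -0.53, -0.09 and -0.25 with PBS. Its PBS replicate 1 lay among the IL-4 arrays, and only PBS replicates 2 and 3 lay above them. Its log2 fold change was -0.27 ± 0.13 over all arrays (SE, adjusted p = 0.18, limma over probes) and -0.03 against PBS replicate 1. For the dimmer of them these values were -0.15 ± 0.11 (adjusted p = 0.35) and -0.0037. Without PBS replicate 1 the probe at -0.27 passed (log2 fold change -0.39, adjusted p = 0.016), a comparison in which slide and group cannot be told apart.

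Il34 encodes the second ligand of CSF1R, which in the brain is made mainly by neurons. Its probe stood at -2.73, -2.63 and -2.64 with IL-4 and at -2.68, -2.75 and -2.72 with PBS. The groups overlapped, and the log2 fold change was 0.05 ± 0.09 (SE, adjusted p = 0.75, limma; 95% interval -0.17 to 0.26). Against PBS replicate 1 the difference was 0.0062. No difference in Il34 was thus seen by this 1 probe, with processed signals of 100 to 138. The interval reflects the spread of these arrays, which may be technical, in a fit that leaves slide out of account.

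Csf1r, the receptor of both ligands, had 1.38-fold less signal with IL-4 by its brightest probe. It stood at 3.34, 3.30 and 3.35 in IL-4 replicates 1 to 3 and at 3.58, 3.88 and 3.94 in PBS replicates 1 to 3, so every IL-4 array was below every PBS array. The log2 fold change was -0.47 ± 0.12 (SE, adjusted p = 0.059, limma; 95% interval -0.75 to -0.19). The IL-4 arrays differed little among themselves (SD 0.027) and the PBS arrays more (SD 0.19).

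Within slide 1 the IL-4 arrays stood at -0.24, -0.28 and -0.23 from PBS replicate 1, with a mean of -0.25. PBS replicate 1 in turn stood at -0.33 from the mean of PBS replicates 2 and 3, a difference between control arrays larger than that between IL-4 and the control of the same slide. With slide as a block the log2 fold change was -0.25 ± 0.11 (SE, adjusted p = 0.49, limma). Of all genes tested, 0.0303% were called with slide as a block. Without PBS replicate 1, Csf1r was called (log2 fold change -0.58, adjusted p = 0.0027, limma), but then all remaining controls are on slide 2, slide and treatment cannot be told apart, and 23% of all genes were called lower. In all other fits that left out 1 array it was not called (adjusted p = 0.15 or above), with log2 fold changes from -0.48 to -0.40.

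The 3 probes of Csf1r, all designed to the transcript NM_001037859, did not move together. The probe second in brightness was higher with IL-4, at 0.54, 0.53 and 0.51 against 0.32, 0.01 and -0.10 with PBS. Its groups did not overlap, and its log2 fold change was 0.45 ± 0.13 (SE, adjusted p = 0.066, limma over probes). Without PBS replicate 1, with all remaining controls on slide 2, this probe was called higher (log2 fold change 0.57, adjusted p = 0.0034). The dimmest probe was lower with IL-4, at -2.43, -2.42 and -2.28 against -2.21, -2.06 and -1.93, a log2 fold change of -0.31 ± 0.11 (with its SE, adjusted p = 0.10). Within slide 1 the directions were the same, with means of 0.21 for the probe second in brightness and -0.16 for the dimmest. For each of the 3 probes all IL-4 arrays were on the same side of PBS replicate 1, and that array lay between the IL-4 arrays and the other PBS arrays.

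The disagreement can be read within each array, where no scaling enters. The log2 ratio of the brightest to the second Csf1r probe was 2.81, 2.77 and 2.83 with IL-4 and 3.26, 3.86 and 4.04 with PBS. Every IL-4 array was below every PBS array, with a difference in means of -0.92. Against PBS replicate 1 the difference was -0.45, and PBS replicate 1 itself stood at -0.69 from the other PBS arrays. The ratio of the brightest to the dimmest probe differed by -0.16 between the groups, at 5.77, 5.72 and 5.63 with IL-4 and 5.79, 5.94 and 5.87 with PBS. These ratios were taken after the values were seen and are given as a description. An exact two-sided permutation of the arrays gave p = 0.1 for both ratios. That is the smallest value its 20 arrangements can give, so it cannot decide whether the groups differ. Where on the transcript each probe lies was not analysed here. Among the 4925 named genes with at least 2 tested probes, 7.23% had fold changes that spread as widely as those of Csf1r (0.92) or more, and the median spread was 0.26. Among the 676 with 3 probes, as Csf1r has, the share was 11.5% and the median spread 0.41. With the mean of its 3 probes in place of the brightest, Csf1r had a log2 fold change of -0.11 (adjusted p = 0.40).

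**Figure D2:**
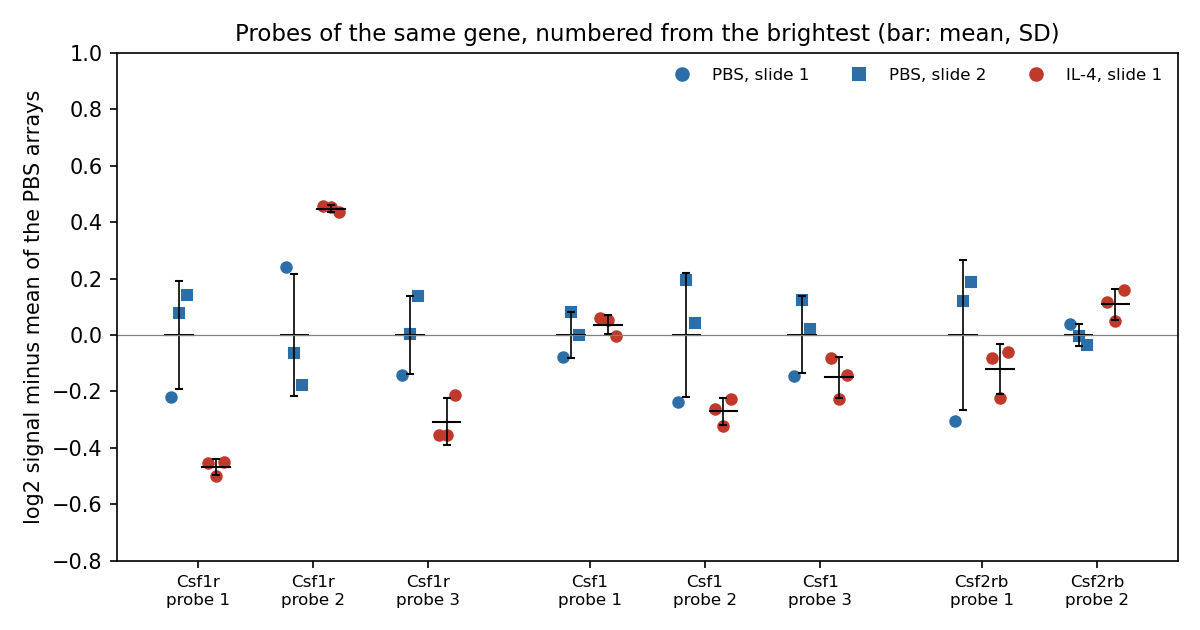
Log2 signal of each probe minus the mean of its 3 PBS arrays (y axis) for the genes with more than 1 probe (x axis), with 1 point per array, group means and SD. The brightest and the dimmest probe of Csf1r lie below 0 with IL-4, with means of -0.47 and -0.31, and the probe between them lies above 0, with a mean of 0.45.

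Csf2ra, the chain that binds GM-CSF, had 1.22-fold less signal with IL-4. It stood at 4.88, 4.90 and 4.90 in IL-4 replicates 1 to 3 and at 5.04, 5.30 and 5.19 in PBS replicates 1 to 3, and the groups did not overlap. The log2 fold change was -0.28 ± 0.11 (SE, adjusted p = 0.11, limma; 95% interval -0.53 to -0.04). Against PBS replicate 1 the 3 IL-4 arrays stood at -0.16, -0.14 and -0.13. PBS replicate 1 stood at -0.21 from the other PBS arrays, and with slide as a block the gene was far from the threshold (adjusted p = 0.73). Without PBS replicate 1 it was called (log2 fold change -0.35, adjusted p = 0.018), again with all remaining controls on the other slide.

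Csf2rb, the beta common chain, changed sign with the choice of control. Its brightest probe stood at 1.70, 1.56 and 1.73 with IL-4 and at 1.48, 1.91 and 1.97 with PBS. The lowest and the highest of the 6 values were both PBS arrays. Over all arrays the log2 fold change was -0.12 ± 0.15 (SE, adjusted p = 0.57, limma; 95% interval -0.46 to 0.22). Against PBS replicate 1 every IL-4 array was higher, by 0.22, 0.08 and 0.25, and PBS replicate 1 stood at -0.46 from the other PBS arrays. A second, dimmer probe was slightly higher with IL-4 without overlap, at -2.15, -2.22 and -2.11 against -2.23, -2.27 and -2.30 (log2 fold change 0.11 ± 0.09, adjusted p = 0.43).

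Csf2rb has a close copy next to it in the mouse genome, Csf2rb2, which encodes a beta chain used by the IL-3 receptor. Whether probes of either gene also bind transcripts of the other was not tested. The brightest probe of Csf2rb2 had a log2 fold change of -0.08 ± 0.13 (with its SE, adjusted p = 0.66), of 0.15 against PBS replicate 1, and PBS replicate 1 stood at -0.36 from the other PBS arrays. Both genes thus had values below 0 over all arrays and above 0 within slide 1. The alpha chains that pair with CSF2RB for other cytokines did not pass either. Il3ra, of the IL-3 receptor, had a value of -0.29 ± 0.11 and Il5ra, of the IL-5 receptor, one of 0.45 ± 0.15 (adjusted p = 0.11 and 0.083), at -0.17 and 0.16 within slide 1.

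Csf3r, the G-CSF receptor, had a bright probe, with processed signals of 15206 to 25746. It stood at 4.82, 4.82 and 4.93 in IL-4 replicates 1 to 3 and at 4.88, 4.50 and 4.76 in PBS replicates 1 to 3. The groups overlapped, and PBS replicate 1 lay above 2 of the 3 IL-4 arrays. The log2 fold change was 0.15 ± 0.12 (SE, adjusted p = 0.42, limma; 95% interval -0.14 to 0.43), and against PBS replicate 1 it was -0.02. Csf3r is also a gene of neutrophils. Of 6 neutrophil markers tested 1 fell and 0 rose, beside 2.54% and 0.807% of all genes. The median of these markers was 0.19 over all arrays and 0.07 against PBS replicate 1. For PBS replicate 1 against the other PBS arrays it was 0.27. S100a8 fell, at -0.97 (limma, adjusted p = 0.042) and at -0.64 within slide 1, while S100a9 stood at 0.07 and Mpo at 0.35 without passing (adjusted p = 0.80 and 0.082).

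**Figure D3:**
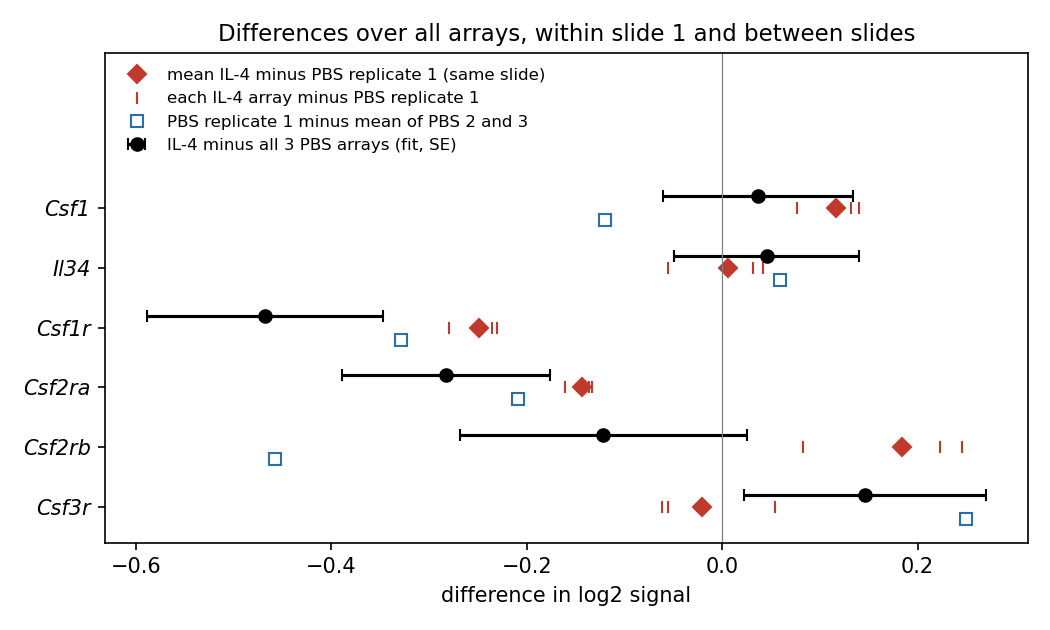
Differences in log2 signal (x axis) of the brightest probe of each gene (y axis): IL-4 minus all PBS arrays with the SE of the fit, each IL-4 array and their mean minus PBS replicate 1 of the same slide, and PBS replicate 1 minus the mean of the other PBS arrays. Csf1r and Csf2ra are below 0 on each measure, while Csf2rb changes from -0.12 over all arrays to 0.18 within slide 1 and Csf3r from 0.15 to -0.02.

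PU.1, the product of Spi1, and C/EBP factors are classical activators of the receptor genes in myeloid cells, so the upstream sequences of the GM-CSF and G-CSF receptor genes are shown, as the 250 bases before the start in RefSeq for GRCm38.p6. Capitals mark the letters GAGGAA, a core bound by PU.1 and other ETS factors, searched on both strands. The Csf2ra stretch is chr19:61228419-61228668 on the minus strand and the Csf3r stretch chr4:126024409-126024658 on the plus strand.
Csf2ra: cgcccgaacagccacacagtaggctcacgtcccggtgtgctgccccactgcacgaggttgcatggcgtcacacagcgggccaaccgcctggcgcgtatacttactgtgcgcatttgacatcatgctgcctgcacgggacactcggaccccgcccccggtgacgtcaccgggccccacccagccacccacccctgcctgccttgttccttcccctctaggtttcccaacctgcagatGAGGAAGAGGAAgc
Csf3r: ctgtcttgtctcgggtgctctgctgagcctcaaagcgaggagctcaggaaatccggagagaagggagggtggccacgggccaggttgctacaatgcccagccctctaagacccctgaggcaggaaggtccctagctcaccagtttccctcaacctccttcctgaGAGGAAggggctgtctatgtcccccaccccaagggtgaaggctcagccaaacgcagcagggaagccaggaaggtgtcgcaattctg
The Csf2ra stretch held 2 such matches side by side, from base -14 to -3 before the start, and the Csf3r stretch held 1, from -86 to -81. The 250 bases upstream of Csf1 held none, and 23.3% of all 32851 promoter stretches of that length held at least 1. No match to TTGCNNAA (C/EBP), TTCNNNGAA (STAT5) or the STAT6 motif, which has 1 more N than that of STAT5, was in any of the 3 stretches, beside 9.56%, 7.02% and 5.85% of all stretches. These are matches of letters and not sites shown to be bound.

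Of the 22 tested regulators of Csf1r transcription, Irf8 and Maf fell, 0 rose and 20 did not pass. Among all genes tested, 2.54% fell and 0.807% rose. Irf8, a factor of macrophage and microglial identity, had a log2 fold change of -0.67 ± 0.12 and Maf one of -0.66 ± 0.13 (SE, adjusted p = 0.039 and 0.044, limma). Within slide 1 they differed by -0.48 and -0.44. Spi1 and Cebpa, which did not pass, were at -0.53 ± 0.15 and -0.52 ± 0.14 (adjusted p = 0.067 and 0.06), and Cebpb at 0.48 ± 0.12 (adjusted p = 0.055). Within slide 1 Cebpa was at -0.27 and Cebpb at 0.34. Spi1 stood at -0.50 in PBS replicate 1 relative to the other PBS arrays, and its difference within slide 1 was -0.20. The median of the list was -0.16, beside -0.05 over all genes tested.

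CSF1R signalling was represented by 43 tested genes, of which 7 fell, 0 rose and 36 were not called. Their median was -0.25. Of all genes tested, 2.54% fell and 0.807% rose. Among them, the RAS activators Sos1 and Sos2 fell by 0.70 log2 units each, and Pik3cd, a catalytic PI3K subunit of leukocytes, by 0.58. The Sos1 probe was dim, with processed signals of 35.7 to 76.6. Tyrobp, an adaptor of myeloid receptors that is also among the microglial markers, fell by 0.95. The adjusted p-values of these genes ran from 0.035 to 0.048 (limma). Pik3cd was nearly as low within slide 1, at -0.54, and Sos1 and Sos2 were at -0.53 and -0.43, whereas Tyrobp stood at -0.54 there and at -0.62 in PBS replicate 1 relative to the other PBS arrays. The kinase genes Syk and Map2k1 had values near 0, at 0.07 and -0.01, and at 0.07 and 0.18 within slide 1.

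Of 31 tested genes for feedback and turnover of CSF1R, 3 fell and 0 rose, beside 2.54% and 0.807% of all genes. Ptpn6 and Spry1 were among those that fell. Ptpn6 encodes the phosphatase SHP-1 and Spry1 an inhibitor of receptor tyrosine kinase signalling. Their log2 fold changes were -0.73 ± 0.14 and -0.53 ± 0.11 (SE, adjusted p = 0.041 and 0.049, limma), and -0.46 and -0.43 within slide 1. Adam17, which sheds CSF1R from the cell surface, was at -0.13 ± 0.12 and the ubiquitin ligase gene Cbl at -0.30 ± 0.16, and neither passed (adjusted p = 0.44 and 0.21). Within slide 1 they were at -0.03 and -0.36. The list's median was -0.20.

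For the lists that follow, the shares over all genes tested were 0.807% that rose and 2.54% that fell. Among 22 tested genes downstream of the GM-CSF and G-CSF receptors, the feedback inhibitors Cish and Socs1 rose and 0 fell. Their log2 fold changes were 1.07 ± 0.11 and 1.17 ± 0.14 (SE, adjusted p = 0.023 and 0.025, limma), and 1.18 and 0.89 within slide 1. Both are also feedback genes of IL-4 signalling. Jak2, the kinase bound to CSF2RB, was at 0.50 ± 0.15 and Stat5a at -0.39 ± 0.10, and neither passed (adjusted p = 0.07 and 0.059), with 0.32 and -0.30 within slide 1. A list drawn up for genes that CSF1 induces in macrophages had 18 tested genes. It also holds Csf1r, and whether CSF1 induces that gene was not tested. The chemokine genes Ccl7 and Ccl2 of this list rose, by 2.48 and 0.93 (limma, adjusted p = 0.011 and 0.028). Its cyclin genes Ccnd1 and Ccnd2 did not pass, at 0.01 and 0.12. Within slide 1 Ccl7 was at 2.63, Ccl2 at 1.11, Ccnd1 at 0.17 and Ccnd2 at 0.37. Of 16 genes that GM-CSF induces, Cd74, the invariant chain of MHC class II, rose by 0.84 (adjusted p = 0.033), and was at 1.09 within slide 1. Other ligands of these receptors did not pass. Csf2, encoding GM-CSF, was at -0.03 ± 0.12, Csf3, encoding G-CSF, at 0.23 ± 0.17 and Il3 at 0.22 ± 0.11 (adjusted p = 0.85, 0.34 and 0.19), and within slide 1 they were at -0.03, 0.0017 and 0.14. Csf3 was dim, with processed signals of 16.6 to 32.2, and was not well above background in PBS replicate 2.

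The receptor tyrosine kinases of the same class as CSF1R did not pass. Flt3 was at 0.48 ± 0.14, Kit at 0.55 ± 0.31 and Pdgfra at -0.58 ± 0.25 (SE, adjusted p = 0.066, 0.24 and 0.14, limma). Within slide 1 they were at 0.32, -0.20 and -0.38. Kit was not well above background in PBS replicates 2 and 3, nor Pdgfra in IL-4 replicate 1, so their differences over all arrays, and that of Pdgfra within slide 1, rest in part on signals at background and have no exact size. Ptprz1 and Sdc1, which encode other proteins that bind IL-34, were at 0.09 and -0.26 (limma, adjusted p = 0.63 and 0.20). Within slide 1 they were at -0.05 and -0.10. Both probes were dim, with processed signals of 28.2 to 46.7 for Ptprz1 and 44.0 to 62.7 for Sdc1.

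**Figure D4:**
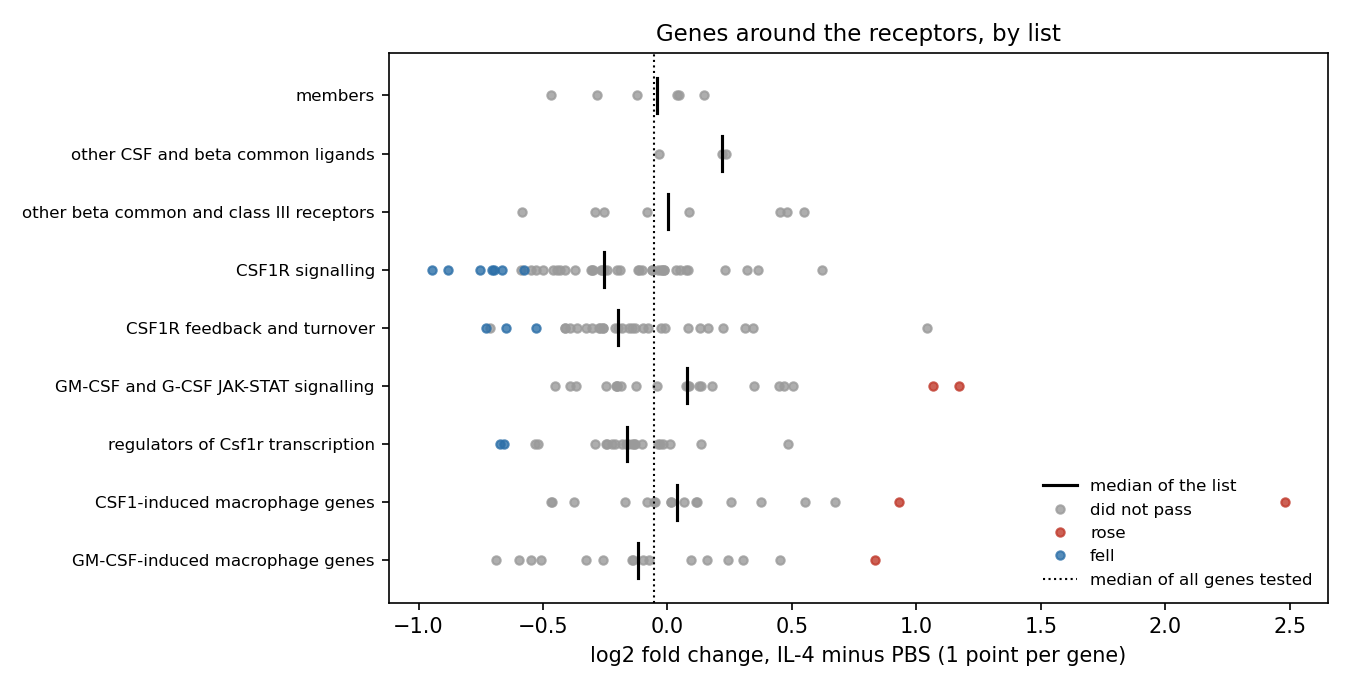
Log2 fold change, IL-4 minus PBS (x axis), of each tested gene in the lists around the receptors (y axis), with 1 point per gene, coloured by whether it rose, fell or did not pass in limma, and the median of each list. The dotted line is the median of all genes tested, -0.05. The medians of CSF1R signalling (-0.25) and of its feedback genes (-0.20) lie to its left. So do those of the regulators of Csf1r transcription (-0.16) and of the GM-CSF-induced genes (-0.12).

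With slide as a block, where 9 of all genes passed, 0 did so in the lists of CSF1R signalling, feedback, JAK and STAT signalling and regulators of Csf1r, and Ccl7 was the only one in the other lists (adjusted p = 0.044). Without any 1 of IL-4 replicates 1, 2 and 3 or PBS replicates 2 and 3, 0 genes passed in the former 4 lists, in fits that called at most 3 of all genes. The median of CSF1R signalling stayed between -0.26 and -0.21 in those fits and that of the feedback genes between -0.23 and -0.16. Without PBS replicate 1, with all remaining controls on slide 2, 24 genes of CSF1R signalling fell and 3 rose, 14 of feedback fell and 1 rose, 7 regulators fell and 1 rose, and 4 genes downstream of the GM-CSF and G-CSF receptors fell and 5 rose. Of all genes, 23% fell and 19.6% rose in that fit, so the counts of the regulators (7 and 1 of 22) and of the downstream genes (4 and 5 of 22) are to be read against that share. The medians against PBS replicate 1 were -0.08 for CSF1R signalling, -0.08 for feedback and -0.08 for the regulators, beside 0.0054 over all genes. For PBS replicate 1 against the other PBS arrays the medians of these lists were -0.26, -0.18 and -0.25, beside -0.08 over all genes.

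The genes whose pattern over the 6 arrays was most like that of the brightest Csf1r probe were Fis1, Rgs10, Atp5d, Snx19 and Naxe, with Pearson correlations of 0.999 each. Likeness was measured among 11785 named genes with a similar spread, and 1798 of them had a correlation above 0.95 with Csf1r. The arrays share slides and groups, so the correlation describes these 6 arrays. The log2 fold changes of the 5 genes ranged from -0.59 to -0.32, and none passed (adjusted p = 0.051 to 0.083). Of 10 tested markers of macrophages and microglia, Aif1, Tyrobp and Lyz2 fell and 9 in all had values below 0. Of all 29752 genes tested, 2.54% fell and 16821 had values below 0. The median of the markers was -0.30 over all arrays, -0.20 against PBS replicate 1, and -0.33 for PBS replicate 1 against the other PBS arrays. Their part in the values of Csf1r was not tested.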

How the data were processed

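Per the file headers, the authors scanned each array into linear spot intensity values using version 11.0.1.1 of Agilent's Feature Extraction. Its processed signal is corrected for background and detrended within the array. Flagged spots were left out, log2 values of copies of a probe were averaged, and each array was set relative to its 75th percentile. The authors also deposited a table of values on a log2 scale, whose columns share the same quartiles, as quantile normalization gives. It was used as an alternative. How it was made is not stated in the labels, and its columns correlated at 0.999 or above with the log2 signal of the same array.

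Tests used the 35979 probes that all arrays of either group (or both) measured well above background. Accessions were matched without version to RefSeq genes of GRCm38.p6, which named 27234 probes, and each gene was read from its brightest tested probe. An accession with no RefSeq match counted as a gene of its own. The probe annotation in the headers is of an earlier build, so no gene coordinates are given. The comparison ran in R 4.3.3 on 29752 genes (limma 3.58.1, lmFit then eBayes), with no block. Probes of a gene were fitted over all probes.

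The members, the lists, the tests and the naming rule were chosen with earlier results of these data known. The rule named all members with every probe, the other ligands and receptors, called members of each list (up to 6 by size; some are not reported here), up to 5 genes most like Csf1r, and markers. Pik3cd, genes of the lists named without a call, and the neutrophil markers, were picked after their values were seen. Il5, Pdgfrb, Yes1 and Myb were not well above background in either group on all arrays and were not tested. Bcl2a1b and Ly6g had no matched probe. Slides were taken from the scan records and array positions in the headers. The scanner files used give no mean signal, so normexp (offset 50) used the median signal. Promoter sequences are from RefSeq for 3 of the 6 genes, Csf1, Csf2ra and Csf3r. None was examined for Csf1r, Il34 or Csf2rb, and entries on the chromosome that holds Csf1r were left out. No protein sequence was used here. The fit was tested on simulated data with known changes.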

Additional observations from a re-analysis of the deposited data

How the results depend on the processing

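Over 20 alternatives the count of genes called moved widely. It was 2637 with quantile normalization, 1733 with scaling to the median, 523 with the 75th percentile taken only over probes that all arrays measured well above background, 4058 (2032 higher, 2026 lower) with normexp and the 75th percentile, 3096 with normexp and quantile and 2299 with the authors' table, against 997 (240 higher, 757 lower). It was 15 with no filter on dim probes, 3808 with probes well above background on all arrays only, 605 with the mean of a gene's probes, 3685 with a trended and robust eBayes, 9 with slide as a block and 1 on slide 1 alone, where the lone PBS array is assumed to vary like the IL-4 arrays. Leaving out 1 array gave 0 to 12654, the highest without PBS replicate 1. The count was 0 without IL-4 replicate 1 or PBS replicate 2, where limma gave 7325 and 6297 genes at an unadjusted p under 0.05.

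Csf1r kept its direction in all 20 and was called in 7: at -0.53 with quantile normalization, -0.52 with normexp and the 75th percentile, -0.58 with normexp and quantile, -0.50 with the authors' table, -0.47 with trended and robust eBayes and -0.47 with probes well above background on all arrays only (adjusted p = 0.021 to 0.048), and without PBS replicate 1. Leaving out 1 array gave -0.58 to -0.40. Csf2ra kept its direction and was called with normexp and quantile (-0.49, adjusted p = 0.043) and without PBS replicate 1, its range on leaving out 1 array being -0.35 to -0.22. So 1 member was called with quantile normalization, with normexp and the 75th percentile, with the authors' table, with trended and robust eBayes and with probes well above background on all arrays only, 2 with normexp and quantile, and 0 to 2 on leaving out 1 array. Csf1 reversed to -0.13 with the mean of its probes and lay between -0.0033 and 0.077 on leaving out 1 array. Csf2rb reversed to 0.18 and Csf3r to -0.021 with slide as a block and on slide 1 alone. Il34 reversed to -0.0052 with normexp and the 75th percentile and to -0.0039 with normexp and quantile. On leaving out 1 array Csf2rb ranged from -0.27 to -0.03, Csf3r from 0.04 to 0.23 and Il34 from 0.03 to 0.08. The second Csf1r probe was higher with IL-4 in all 15 alternatives run on probes, which were chosen after seeing the data. It was called higher in 3 of them, in which the brightest probe was called lower. These were normexp and the 75th percentile (0.39, adjusted p = 0.036) and normexp and quantile (0.41, adjusted p = 0.038, limma over probes). The third was the fit without PBS replicate 1 (0.57, adjusted p = 0.0034). The cause of these moves was not tested.

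With the replicate number as a block 3770 genes and 0 members were called. Deviations of same-numbered arrays correlated at 0.08, -0.02 and 0.30. IL-4 replicates 1 and 3 correlated best with the PBS array of their own number, and IL-4 replicate 2 with PBS replicate 1 (0.04). With 3 arrays per group, these values cannot tell whether the numbers pair the samples.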

Other observations

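Flt3, a receptor tyrosine kinase of the class of CSF1R, also had probes in opposite directions. Its brighter probe had a log2 fold change of 0.48 ± 0.13 and its dimmer one -0.29 ± 0.18 (SE, adjusted p = 0.066 and 0.28, limma over probes). The probes of Csf2rb2 lay at -0.08 and 0.07. Among the 4925 named genes with at least 2 tested probes, 1 gene had probes called in both directions.

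Markers of other cell types mostly did not pass. Of 5 neuron, 6 oligodendrocyte, 5 astrocyte, 5 endothelial, 4 fibroblast or mural, 6 T and B cell and 4 mast or erythroid markers tested, 0 rose and 0 fell in limma. Their list medians lay between -0.10 and 0.30. The highest was that of T and B cell markers, which was 0.15 against PBS replicate 1.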
